A study of Mus musculus with 12 samples.

Results

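The mitochondrial ribosomal protein genes are the nuclear genes that encode the proteins of the mitochondrial ribosome. Members were taken as autosomal protein-coding genes of the RefSeq mm10 annotation whose symbol is Mrpl (large subunit) or Mrps (small subunit) followed by a number, which gave 78 of 20665 genes. Of these, 51 were assigned to the large subunit, among them Mrps18a and Mrps30 despite their symbols, and 26 to the small subunit. Mrps36 was put in neither, since its product is also known as a component of the 2-oxoglutarate dehydrogenase complex. The mitochondrial ribosome translates the few mRNAs of the mitochondrial genome, all of which encode membrane subunits of oxidative phosphorylation. Its RNAs come from mitochondrial DNA, whereas its proteins are made in the cytosol and imported, so the nucleus and the mitochondrion must supply it together. Nuclear respiratory factor 1 (Nrf1) and the ETS factor GABP (Gabpa), textbook regulators of nuclear genes for mitochondrial proteins, bind promoters of this kind.

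Chromatin accessibility was mapped by ATAC-seq, in which a transposase inserts adapters into open DNA, in bone marrow-derived macrophages (BMDMs) of mice with (WT) or without (KO) Baf60a, the product of Smarcd1 and a component of SWI/SNF complexes, which remodel chromatin. Cells were untreated or received oxidised low-density lipoprotein (oxLDL) at 50 µg/ml for 48 h. A first cohort held 4 libraries, 1 for each combination of genotype and treatment, prepared with the Omni-ATAC protocol. Its labels give the genotype only as WT or KO and do not give the ApoE status. A replicated cohort, all ApoE KO, held 8 libraries, 2 per combination, prepared with a Nextera kit from cryopreserved BMDMs. There both genotypes carried floxed Baf60a (Baf60af/f) and the ApoE KO, and the KO also carried Lyz2 Cre, a recombinase driven from a myeloid gene, which WT lacked. The labels do not say whether the libraries of a group derive from different animals or cultures. P-values here therefore refer to the spread among these libraries, which could be technical only.

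Each library was represented by its list of called peaks, 80394 to 138132 on the autosomes in the first cohort and 24397 to 44524 in the replicated cohort. KO lists were longer than WT lists of the same treatment in the first cohort. In the replicated cohort untreated WT lists held 29064 and 39303 peaks against 44524 and 33267 in KO, and oxLDL WT lists held 27571 and 24397 against 35589 and 33934 in KO. Because list length sets how many genes have a peak, each list was cut to its highest-scoring peaks, down to the length of the shortest one of its cohort (80394 or 24397). These are called equal-length lists. A boundary peak had its summit, or its centre in the first cohort, within 1 kb of the start or end of a gene. The strongest boundary peak of a gene was the one with the highest score of the peak caller, and its score percentile was its rank among all autosomal peaks of the same list, from 0 to 100. Because list length differs between the cohorts, the same percentile does not stand for the same rank in both. Sequencing depth is unknown, since the lists hold no reads. In such bulk samples fewer cells with an open site and less opening per cell cannot be told apart.

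The promoters that recur below are printed first, so that the measured regions can be read. Each sequence is the stretch directly before the annotated gene start from RefSeq on GRCm38.p6 (mm10), 5′ to 3′ on the strand of the gene, cut where another gene begins, and capitals mark the letters of searched motifs. Mrps9, Mrpl17, Mrpl32 and Mrps12 were among the members with the most kinds of motif in their window. Mrps14 was added after its values were seen because its peak ranked highest, and the stretch between Mrps11 and Mrpl46 because both genes share a single peak.
Mrps14, chr1:160194965-160195214, plus strand: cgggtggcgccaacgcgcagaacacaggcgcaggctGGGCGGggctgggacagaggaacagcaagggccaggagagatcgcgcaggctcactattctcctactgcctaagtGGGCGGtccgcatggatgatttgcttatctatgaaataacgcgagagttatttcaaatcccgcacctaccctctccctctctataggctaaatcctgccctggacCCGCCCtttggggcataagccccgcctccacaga
Mrps9, chr1:42850983-42851232, plus strand: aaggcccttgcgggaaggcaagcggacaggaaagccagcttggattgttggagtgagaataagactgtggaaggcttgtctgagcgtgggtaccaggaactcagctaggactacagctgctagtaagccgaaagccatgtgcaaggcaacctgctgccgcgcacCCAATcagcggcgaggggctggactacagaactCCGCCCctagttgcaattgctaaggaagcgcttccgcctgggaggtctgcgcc
Mrpl17, chr7:105811088-105811337, minus strand: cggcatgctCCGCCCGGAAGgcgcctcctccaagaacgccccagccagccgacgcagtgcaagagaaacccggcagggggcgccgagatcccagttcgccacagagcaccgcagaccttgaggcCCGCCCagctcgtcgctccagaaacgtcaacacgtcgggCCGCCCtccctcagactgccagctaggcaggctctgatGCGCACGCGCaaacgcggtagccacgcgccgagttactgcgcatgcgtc
Mrpl32, chr13:14613038-14613241, minus strand: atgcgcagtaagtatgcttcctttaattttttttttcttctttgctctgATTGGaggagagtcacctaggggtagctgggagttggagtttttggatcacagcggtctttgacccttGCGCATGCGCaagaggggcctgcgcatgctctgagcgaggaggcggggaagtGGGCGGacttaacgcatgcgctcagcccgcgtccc
Mrps12, chr7:28741822-28741956, minus strand: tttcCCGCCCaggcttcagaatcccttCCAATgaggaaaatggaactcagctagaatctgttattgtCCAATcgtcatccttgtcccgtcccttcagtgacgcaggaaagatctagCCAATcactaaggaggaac
Mrps11 (between Mrpl46 and Mrps11), chr7:78783090-78783130, plus strand: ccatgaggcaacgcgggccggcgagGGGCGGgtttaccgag
Mrpl17 and Mrpl32 hold a full NRF1 motif, Mrpl17 also an ETS motif that overlaps an SP/KLF motif, and Mrps12 holds several copies of the NF-Y motif.

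Almost every member had a boundary peak in the first cohort. In its equal-length lists 73 or 74 of 78 members had one, a mean of 94.2% ± 0.739 (SD, n = 4 libraries), where 58.3% of all autosomal protein-coding genes did. In the replicated cohort 60 to 68 members had one, a mean of 81.1% ± 3.67 (SD, n = 8), beside 43.6% of all genes. The cytosolic ribosomal protein genes, which encode the proteins of the ribosome outside mitochondria, gave 85.8% and 81.6%. A peak in all 12 libraries was found for 53 members (67.9%), for 36.0% of all genes and for 72.3% of 83 cytosolic ribosomal protein genes. Members were chosen by symbol and not by peak calls.

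**Figure D1:**
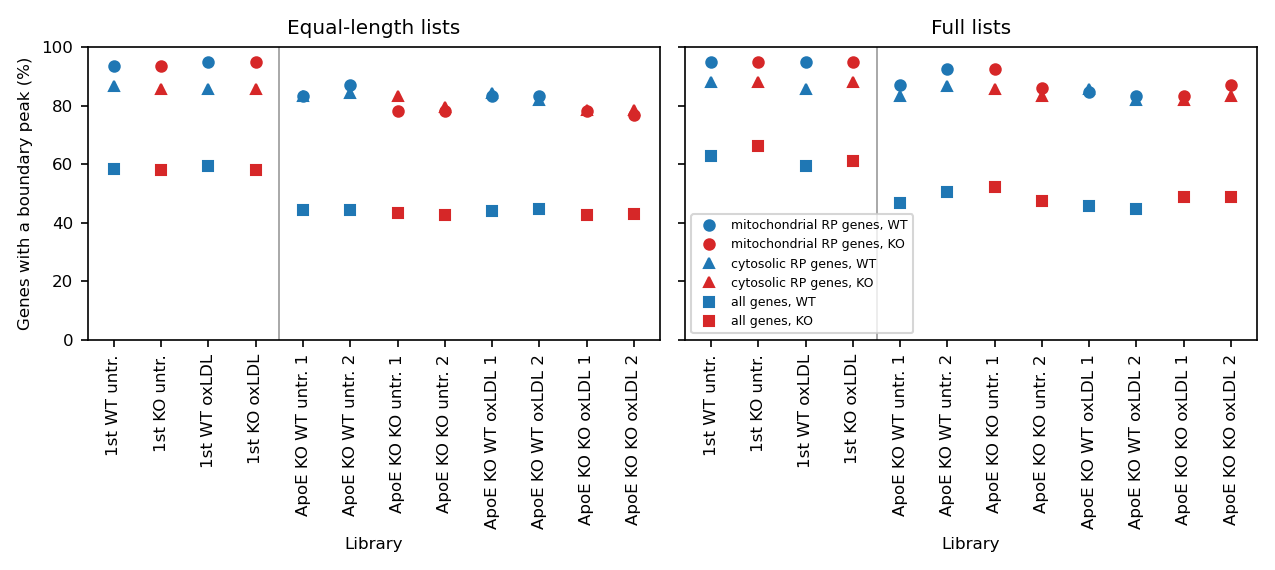
Percent of genes with a boundary peak (vertical axis) in each library (horizontal axis; untr., untreated) for the 78 mitochondrial ribosomal protein (RP) genes (circles), 83 cytosolic ones (triangles) and 20665 autosomal protein-coding genes (squares), WT in blue and KO in red; libraries marked ApoE KO form the replicated cohort. In equal-length lists (left) the KO libraries of the replicated cohort hold 60 or 61 members and the WT libraries 65 to 68, and in full lists (right) both genotypes hold 65 to 72.

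No boundary peak was called in any library at 3 large-subunit genes, Mrpl4, Mrpl18 and Mrpl24. Mrpl4 encodes a protein that lines the polypeptide exit tunnel of the ribosome. With the window widened to 2 kb, Mrpl18 and Mrpl24 had a peak in all 12 libraries and Mrpl4 in 10, so peaks lay close by but outside 1 kb. Mrps31 had a boundary peak in all 8 ApoE KO libraries and in none of the 4 of the first cohort. Its peak there lay 900.0 bp into the gene by the median summit, near the edge of the window, and when any overlap of the peak with the window counted it was called in all 12. Mrps23 was called in 2 libraries, both of oxLDL-treated cells of the first cohort, at percentiles of 5.99 in WT and 2.84 in KO. Mrps2 and Mrpl16 were called in the 4 libraries of the first cohort and in none of the replicated cohort. The promoter windows of Mrps23, Mrps2, Mrpl18 and Mrpl24 lay outside 1 kb of the gene boundaries, so these calls do not describe those promoters.

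Mrpl28, Mrps10 and Mrps18a were each called in all 4 libraries of the first cohort and in 1 of the replicated cohort, in WT each time, and Mrps34 in 1 KO library. Mrpl10, whose product forms the base of the stalk that binds translation factors, and Mrpl33 were each called in 3 of 8. The paralogues Mrps18a, Mrps18b and Mrps18c differed in this respect. Mrps18b and Mrps18c were called in all 12 libraries, with mean percentiles in the replicated cohort of 82.2 and 39.8. Mrps18a had a mean percentile of 90.5 in the first cohort, and its only call in the replicated cohort, at 14.5, was in an oxLDL-treated WT library.

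**Figure D2:**
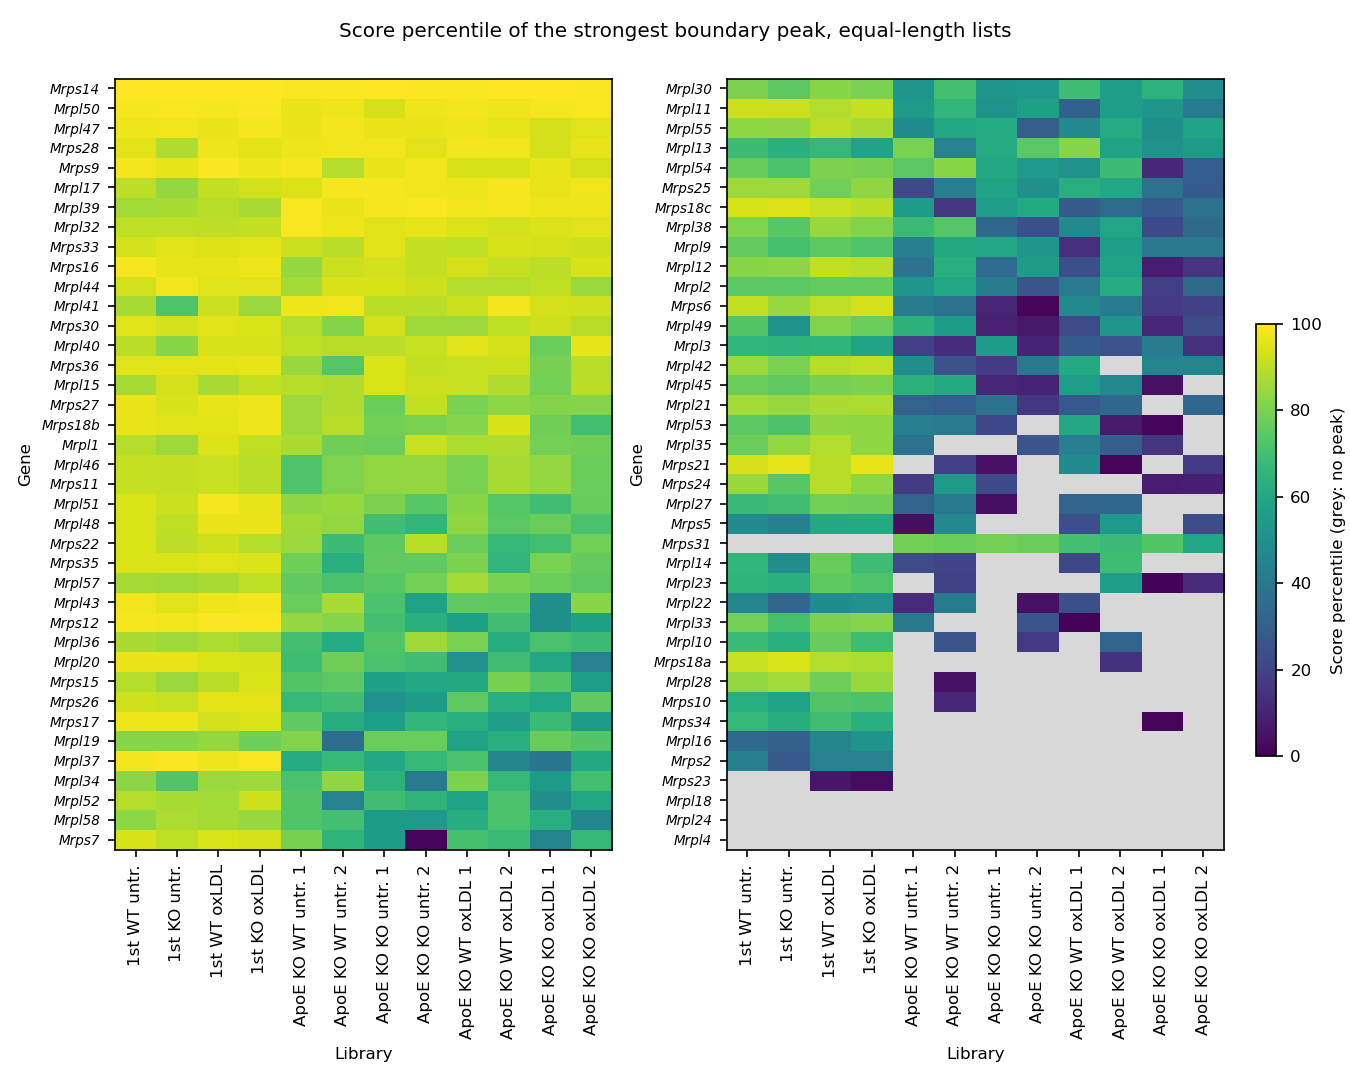
Score percentile (colour, 0 to 100; grey where no boundary peak was called) of the strongest boundary peak of each of the 78 genes (rows, sorted by the number of libraries with a peak and then by mean percentile) in the 12 equal-length lists (columns; untr., untreated). Mrps14 is near the top of every list, 53 genes have no grey cell, and most grey cells lie in the replicated cohort.

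Mrps14 had the highest-ranking peak of the set, with a mean percentile of 99.6. It encodes a small-subunit protein with a bacterial counterpart. In the first cohort its peak stood between 99.91 and 99.95 in all 4 libraries. The replicated cohort gave 99.0 and 99.3 in untreated WT, 99.6 and 99.3 in untreated KO, 98.9 and 99.7 in oxLDL WT, and 99.8 and 99.3 in oxLDL KO. The groups overlapped. The deposited fold enrichment at its peak, the authors' value for each peak of the replicated cohort, averaged 12.1 with a range of 9.58 to 14.8. Mrpl50, Mrpl47, Mrps28 and Mrps9 followed with mean percentiles of 97.9, 96.9, 95.9 and 95.9. Percentiles of Mrpl17, Mrpl32 and Mrpl39 were 97.7, 95.8 and 98.1 in the replicated cohort. They were 89.4, 90.4 and 87.3 in the first cohort, whose lists are longer.

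At the other end stood Mrps23 (4.42), Mrpl22 (32.6), Mrpl3 (38.5), Mrps2 (40.2) and Mrps5 (40.6), as means over the libraries with a peak. The promoter windows of Mrps23, Mrpl22 and Mrps2 lay outside 1 kb of the gene boundaries, so these ranks do not describe those promoters. Mrpl22, another protein of the exit tunnel, had no peak within 1 kb of its annotated 5′ end in equal-length lists. In its 8 libraries the boundary peak lay at the 3′ end of the gene. With the window widened to 2 kb it had a peak in 11 libraries. Mrpl3, called in all 12 libraries, averaged 63.7 in the first cohort and 25.9 in the replicated cohort, as percentiles of lists of different length. Over all members with a peak, the median percentile was 85.8 to 89.5 in the libraries of the first cohort (all genes, 78.9 to 86.0) and 66.5 to 73.0 in those of the replicated cohort (all genes, 70.0 to 74.1). Members were therefore called more often than the average gene in both cohorts, whereas in the replicated cohort the rank of the peaks that were called lay within or below the range of all genes. Across the 53 members called everywhere, mean percentiles of the 2 cohorts had a Spearman correlation of 0.525, and 0.527 across 7437 genes. These are descriptions across genes, which are not replicates, and all genes of a cohort share its libraries.

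Peaks were widest at Mrpl40 (mean 1784 bp over 12 libraries), Mrpl41 (1615 bp) and Mrpl51 (1446 bp), which encode large-subunit proteins without bacterial counterparts. They were narrowest at Mrps23 (231 bp), Mrpl22 (403 bp) and Mrps2 (493 bp), each called in fewer than 12 libraries. At each of these genes the measured boundary was not the site of the promoter window. Median widths of the members ran from 1048 to 1264 bp in the first cohort and from 545 to 903 bp in the replicated cohort, and those of all genes from 1062 to 1319 bp and 618 to 961 bp. Width order was shared between the cohorts (Spearman correlation 0.684 across 53 members and 0.614 across 7437 genes, as a description).

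Members of the large and small subunits were called in all 12 libraries at like shares, 34 of 51 and 18 of 26. The median over genes of the mean percentile in the replicated cohort was 59.1 for the large and 66.7 for the small subunit. Split by assigned label instead, 25 of 32 members labelled specific to mitochondria and 27 of 45 labelled bacterial homologues were called in all 12. The 3 genes without any peak were bacterial homologues. The median percentiles in the replicated cohort were 72.9 for members labelled specific to mitochondria and 53.9 for bacterial homologues. In the first cohort, whose lists are longer, they were 89.85 and 86.35 in the same order. Members with no call in a cohort gave no value to its medians. The Mrps18 paralogues carried different labels, Mrps18a and Mrps18b as specific to mitochondria and Mrps18c as a bacterial homologue. The labels therefore do not sort members strictly by origin. No test was run on these splits.

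The peaks lay at the 5′ ends of the genes, and many stood between a pair of genes. Among members of known strand (69 of 78), 93.8% to 95.5% of strongest peaks in the first cohort and 96.2% to 98.1% in the replicated cohort were at the 5′ boundary. Mrpl22 was at its 3′ end throughout, and Mrpl58, which encodes a peptidyl-tRNA hydrolase built into the ribosome, in 11 of 12 libraries. Mrpl2 was at its 5′ end in 7 of 12 libraries, Mrps18b in 9 of 12 and Mrps21 in 8 of 9. The strongest peak was also a boundary peak of another protein-coding gene for 49.2% to 53.8% of called members, depending on the library, for 23.8% to 28.4% of called genes overall and for 21.2% to 25.4% of cytosolic ribosomal protein genes. By annotation, 22 of 69 members (31.9%) had a divergent neighbour, a gene on the other strand with its 5′ boundary within 1 kb, against 7.86% of 16457 genes and 12.7% of 63 cytosolic ribosomal protein genes.

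Several of these neighbours encode mitochondrial proteins themselves. Mrpl36 is paired with Ndufs6 and Mrpl47 with Ndufb5, both genes of respiratory complex I, and Mrps12 with Sars2, the mitochondrial seryl-tRNA synthetase, 136 bp away. Mrpl46 and Mrps11, 42 bp apart, are both members, and the sequence printed for Mrps11 is nearly all that separates them. They shared 1 peak in all 12 libraries and so count as 2 members with 1 measurement. Its percentile was 89.5 to 91.8 in the first cohort. The replicated cohort had 72.4 and 80.8 in untreated WT, 83.8 and 84.3 in untreated KO, 80.0 and 86.7 in oxLDL WT and 84.2 and 77.2 in oxLDL KO. Both untreated KO libraries stood above both untreated WT libraries, and the oxLDL groups overlapped. The share of all genes with such a split was not counted. Other pairs shared a peak as well, such as Mrpl50 with Zfp189 and Mrpl40 with Hira, and a shared peak cannot be assigned to 1 of its genes.

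Motifs for NRF1, ETS, YY1, SP/KLF and NF-Y factors and the TATA box were searched on both strands in RefSeq promoter windows. Each window runs from 250 bases before to 50 after a promoter start, which need not be the gene start used for boundary peaks. The window began at 88204138 for Mrps23, whose gene begins at 88194106. For Mrps2, Mrpl22, Mrpl36, Mrpl18 and Mrpl24 it also lay outside the 1 kb used for boundary peaks. The NRF1 motif is the one written in capitals near the end of the Mrpl17 sequence and in the middle of the Mrpl32 sequence, with its sixth base free. A window was at hand for 69 members, and in 1 of them motifs of different kinds overlapped. NRF1 letters stood in 13 member windows (18.8%), in 6.88% of 16457 windows of all genes and in 6.35% of 63 windows of cytosolic ribosomal protein genes. The ETS motif, CCGGAAG, stood in 34.8%, 12.3% and 34.9% of these windows in the same order. The YY1 motif, ATGGCGG, stood in 18.8%, 5.51% and 15.9%. The SP/KLF motif, GGGCGG, was found in 49.3%, 47.3% and 54.0%. The NF-Y motif, CCAAT, was found in 39.1%, 39.1% and 28.6%, so that members and all genes had similar shares of both. TATAAA stood in 5.80%, 13.5% and 9.52%. The median GC content of the windows was 58.3% in members and 56.7% in all genes, with 21 and 14 CG dinucleotides. These are matches of letters, not measured binding.

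Members with and without a motif differed little in rank for NRF1: the median percentile in the replicated cohort was 64.3 for the 13 with it and 61.7 for the 56 without. For SP/KLF it was 72.0 for 34 members with and 45.7 for 35 without, and 28 and 18 of them were called in all 12 libraries. For YY1 it was 38.1 for 13 with and 64.2 for 56 without. In the first cohort the medians with and without were 87.5 and 89.4 for NRF1, 90.9 and 83.2 for SP/KLF, and 83.2 and 89.4 for YY1. The counts can include members with no call in a cohort, which gave no value to its median. Where the promoter window lay outside the 1 kb used for boundary peaks, motif and peak were read at different sites. These are descriptions of motif classes, and no test was run.

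**Figure D3:**
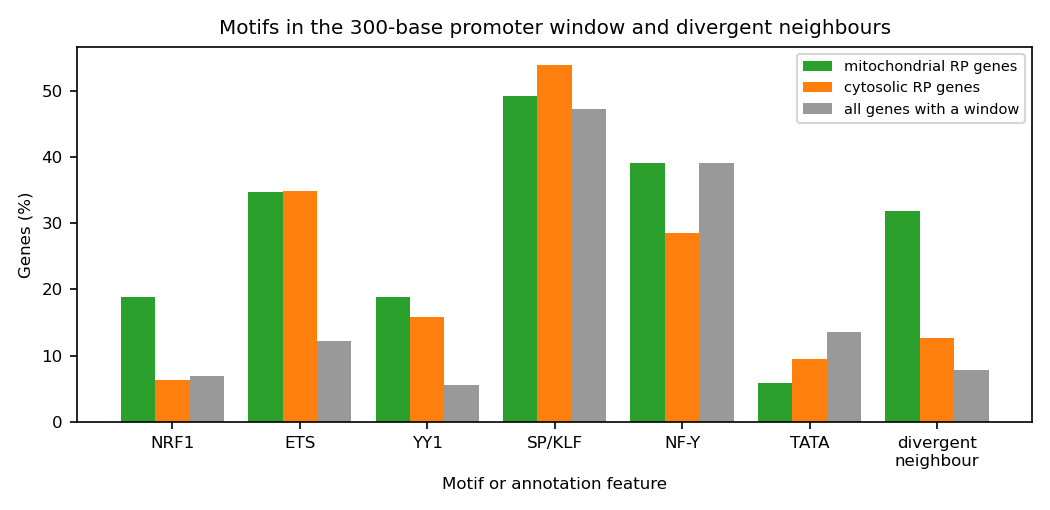
Percent of genes (vertical axis) whose 300-base promoter window holds each motif, or that have a divergent neighbour within 1 kb, for mitochondrial ribosomal protein (RP) genes (green), cytosolic ones (orange) and all genes with a window (grey). The green bars stand at 18.8% for NRF1 and 31.9% for divergent neighbours, the grey bars at 6.88% and 7.86%.

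The comparison of KO with WT asked how accessibility depends on Baf60a. In the equal-length lists of the replicated cohort fewer members had a boundary peak in KO than in WT. Untreated WT libraries had 65 and 68 members with a peak and oxLDL WT libraries 65 and 65. Untreated KO libraries had 61 and 61, and oxLDL KO libraries 61 and 60. Every KO library was thus below every WT library. Counts over all genes did the same, with 9095 to 9215 in WT and 8776 to 8921 in KO, whereas cytosolic ribosomal protein genes overlapped (68 to 70 and 65 to 69).

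Gene by gene, 14 members (17.9%) were called in more WT than KO libraries of this cohort, beside 7.72% of all genes, and 3 (3.85%) in fewer, beside 3.83%. Genes without a peak in any equal-length list could not enter this count, and these were 37.6% of all genes but 3 of 78 members. The shares are therefore not on the same footing. This count was chosen after the data were seen. It depended on list length: in the full lists 5 members were called in more WT and 5 in more KO libraries (3.85% and 10.2% of all genes), and both genotypes had 65 to 72 members with a peak. In the first cohort WT and KO did not differ, with 73 and 74 members in each.

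Mrpl14, a large-subunit protein at the interface with the small subunit, gave the largest contrast in calls. In equal-length lists it had a boundary peak in 4 of 4 WT and 0 of 4 KO libraries of the replicated cohort, as did 0.0919% of all genes (19 genes), and 0.00968% had the reverse. Its WT percentiles were 23.0 and 20.8 untreated and 21.7 and 68.7 with oxLDL, so that all but 1 of these calls lay low in their lists. In the full lists no member had such a split, beside 0.00484% of all genes, or the reverse, beside 0.0871%. There Mrpl14 was called in 4 WT and 3 KO libraries, with percentiles of 35.4, 50.9, 30.7 and 68.7 in WT and 29.8, 16.2 and 24.8 in KO. In the first cohort both genotypes had the peak, at 65.9 in WT and 48.97 in KO untreated and 76.9 and 68.8 with oxLDL. The peak was also a boundary peak of Tmem63b. Its median summit lay 650.5 bp inside Mrpl14, within the RefSeq promoter window of that gene. Mrpl27 and Mrps5 were each called in 4 WT and 1 KO libraries and Mrpl53 in 4 and 2. In the full lists Mrpl27 was called in all 8, and Mrps5 and Mrpl53 in 4 and 3.

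A wider rule asked for a peak in at least 5 of 6 libraries of a genotype or treatment and at most 1 of 6 of the other, over both cohorts. No member met it in any direction, as against 0.00484% of all genes for KO, 0.00968% for WT, 0.00968% for oxLDL and 0% for untreated cells. When either KO library of the first cohort was left out, Mrpl14 met it, in 6 WT libraries and 1 KO library, and so did 72 genes in all (0.348%) without the untreated library and 73 (0.353%) without the oxLDL library, against 2 with all libraries.

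Where a gene had a boundary peak in all 12 libraries, its percentile was tested with limma (trend) over 7437 genes in 1 fit with a term for cohort. Of the members, 53 entered and 25 did not, and p-values were adjusted over all 7437 genes. No gene passed an adjusted p under 0.05 in any of 6 tests. For KO minus WT the members had a median difference of -1.36 percentile points (all genes, -2.32), with 18 above and 35 below 0. Of all genes, 26.6% were above 0. At an unadjusted p under 0.05, 11 of 53 members (20.8%) were lower in KO, where 15.2% of all genes were, and 0 were higher, where 1.63% were. When the KO library with oxLDL of the first cohort was left out, 1 member, Mrpl54, was called lower in KO (-29.2 points, adjusted p = 0.0373, limma), as 1 of 66 genes called among 7440 in that fit, and over its 20 alternatives the adjusted p ran from 0.0373 to 0.717.

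The median turned in full lists, where it was 0.71 points for the members and 0.52 for all genes, and 1.496 and 1.03 with a score of at least 50. Leaving out single libraries gave -2.30, without untreated KO library 1 of the replicated cohort, to -0.77, without its oxLDL KO library 2. The rank among boundary peaks of the tested genes only, an alternative chosen after seeing the data, gave 1.62 for the members and -0.17 for all genes.

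Mrpl49, a large-subunit protein specific to mitochondria, had the smallest p. Untreated, it stood at 73.2 in WT and 51.05 in KO of the first cohort, and at 64.2 and 55.1 in WT and 8.999 and 6.76 in KO of the replicated cohort. With oxLDL it stood at 81.0 in WT and 77.0 in KO of the first cohort, and at 22.8 and 52.4 in WT and 11.4 and 22.9 in KO of the replicated cohort. All KO libraries were below the WT libraries of their cohort and treatment except 1 with oxLDL, which was level with the lower WT library. The fitted difference was -28.4 ± 7.76 points (SE; limma, adjusted p = 0.167), and -11.6 points in full lists. Its peak is shared with the divergent gene Fau, whose product is a fusion of a ubiquitin-like protein with a cytosolic ribosomal protein.

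Mrpl38, Mrpl54, Mrps7 and Mrps12 were lower in KO with no overlap in either treatment of either cohort, 4 of 53 members (7.55%) beside 7.45% of all genes. On the higher side 0 members had no overlap, beside 0.578%. In some or all libraries these 4 peaks were also boundary peaks of Trim65, Apba3, Gga3 and Sars2, in this order. Mrpl38, a protein of the central protuberance of the large subunit, stood at 81.1 in WT and 74.1 in KO untreated and 84.4 and 81.1 with oxLDL in the first cohort. In the replicated cohort it stood at 68.2 and 73.6 in WT and 33.6 and 24.3 in KO untreated, and at 47.8 and 58.8 in WT and 22.6 and 34.4 in KO with oxLDL. Its fitted difference was -24.0 ± 6.57 points (SE; limma, adjusted p = 0.167), and -10.5 points in full lists. In percentile points the gap was wide in the replicated cohort and a few points in the first, whose lists are longer.

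Mrpl54 stood at 74.5 and 82.3 in WT and 60.2 and 54.0 in KO in the untreated replicated cohort, and at 50.9 and 68.5 in WT and 11.4 and 29.9 in KO with oxLDL. In the first cohort it stood at 76.9 and 71.2 untreated and 80.4 and 79.5 with oxLDL, WT before KO. The difference was -21.2 ± 7.17 points (SE; limma, adjusted p = 0.207) and -9.44 in full lists. Mrps7, a protein of the head of the small subunit, gave -19.9 ± 7.57 points (SE; limma, adjusted p = 0.220) and -10.5 in full lists. In its untreated KO libraries of the replicated cohort the values were 55.3 and 1.89, so 1 library lay far below the rest.

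Mrps12, a protein of the decoding centre whose promoter with its NF-Y motifs is printed above, stood close to the top in the first cohort: 98.7 in WT and 97.7 in KO untreated, and 99.3 and 99.2 with oxLDL. The replicated cohort had it at 84.1 and 81.9 in WT and 70.6 and 63.4 in KO untreated, and at 57.1 and 69.4 in WT and 49.7 and 57.1 in KO with oxLDL. The upper oxLDL KO value lay just under the lower WT value. The difference was -8.81 ± 4.73 points (SE; limma, adjusted p = 0.345) and -2.59 in full lists. Mrpl41, whose peak is among the widest, gave -6.89 ± 1.99 points (SE; limma, adjusted p = 0.185).

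On the higher side, the smallest p-values belonged to Mrpl19 (9.98 ± 6.16 points, SE), Mrps18c (7.72 ± 6.74) and Mrps33 (1.61 ± 1.32), with adjusted p from 0.407 to 0.566 by limma. For Mrpl19 the untreated WT libraries of the replicated cohort stood at 81.1 and 36.3, farther apart than the genotypes. Mrps6, a small-subunit protein, was lower in KO in the replicated cohort (WT 42.2, 37.5, 47.4 and 41.4; KO 10.7, 1.28, 17.1 and 19.8), and with oxLDL in the first cohort it was higher (90.4 in WT and 93.7 in KO). Mrps6 is named after its values were seen, and the share of all genes with such a split was not counted. In some or all libraries its peak was also a boundary peak of Slc5a3.

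**Figure D4:**
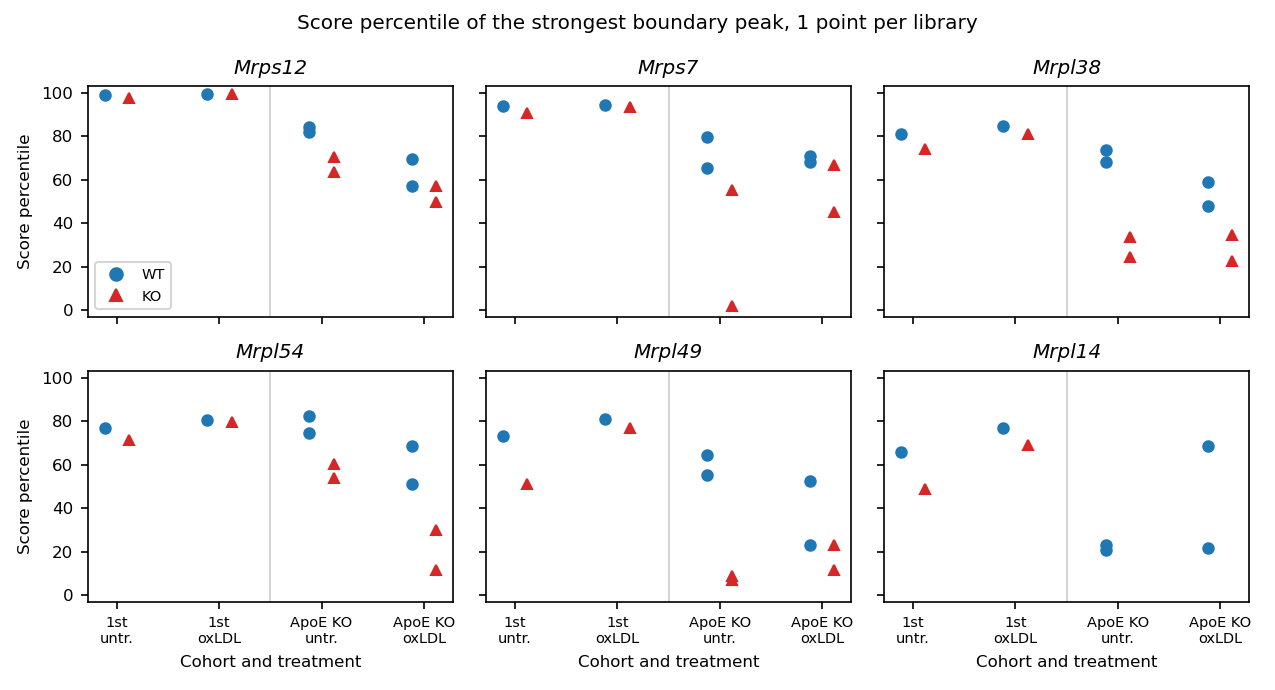
Score percentile (vertical axis, 0 to 100) of the strongest boundary peak of 6 genes by cohort and treatment (horizontal axis; untr., untreated), 1 point per library, WT as blue circles and KO as red triangles, from equal-length lists. Mrps12, Mrps7, Mrpl38 and Mrpl54 have every KO point below the WT points of the same cohort and treatment, and Mrpl14 has no KO point in the replicated cohort.

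Peak width was tested in the same way. For KO minus WT the median difference in log2 width was 0.10 for members and 0.14 for all genes. Of the members 39 were above and 14 below 0, and 85.7% of all genes were above 0. When each library was centred on its median width these medians became -0.05 and -0.01, so the direction was not kept. No member was called at an adjusted p under 0.05, and at an unadjusted p under 0.05, 3 of 53 (5.66%) were wider in KO, beside 12.8% of all genes, and 0 narrower, beside 0.0538%.

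The members wider in KO by unadjusted p were Mrpl37, Mrps25 and Mrpl47. Mrpl37 was the only one wider in KO without overlap in every cohort and treatment (1 of 53, 1.89%, beside 6.8% of all genes), and 0 members were narrower in that way, beside 0.0134%. Its peak was in some or all libraries also a boundary peak of Cyb5rl. It measured 1418 bp in WT and 1806 bp in KO untreated and 1362 and 1404 bp with oxLDL in the first cohort. Replicated libraries measured 849 and 683 bp in WT and 1022 and 869 bp in KO untreated, and 640 and 561 bp in WT and 964 and 928 bp in KO with oxLDL. The difference was 0.39 ± 0.11 on the log2 scale (SE; limma, adjusted p = 0.377). For Mrps25 it was 0.45 ± 0.18 (adjusted p = 0.377) and for Mrpl47 0.18 ± 0.08 (adjusted p = 0.380). Mrpl2, Mrpl38 and Mrps6 had the smallest p-values for narrower peaks in KO, at -0.49, -0.33 and -0.49, with adjusted p from 0.434 to 0.568 by limma. The strongest Mrpl2 peak lay at the 5′ boundary in 7 of 12 libraries and at the 3′ boundary in the others. Its widths therefore come from different peaks.

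The comparison of oxLDL with untreated cells asked for the response to lipid loading. In equal-length lists of the replicated cohort oxLDL libraries had 65, 65, 61 and 60 members with a peak and untreated libraries 65, 68, 61 and 61, with overlap. The percentile of the members had a median difference of 0.10 points (all genes, 0.62), with 27 above and 26 below 0. Of all genes, 58.8% were above 0. No member passed the adjusted threshold by limma. At an unadjusted p under 0.05, 3 of 53 (5.66%) were lower with oxLDL, beside 1.33% of all genes, and 0 higher, beside 4.44%. In full lists the medians were -3.08 and -2.17, and leaving out single libraries gave -0.57 to 0.33 for the members.

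The 3 lower members were Mrpl54 (-16.4 ± 7.17 points, SE), Mrpl20 (-11.6 ± 5.00) and Mrps12 (-10.8 ± 4.73), each with adjusted p = 0.799 by limma. All of this lay in the replicated cohort for Mrps12 and Mrpl54: in the first cohort both were higher with oxLDL in both genotypes. Mrpl20 stood at 96.9 in WT and 96.6 in KO untreated and 94.2 and 94.1 with oxLDL in the first cohort. The replicated cohort had Mrpl20 at 69.1 and 78.4 in WT and 71.4 and 69.4 in KO untreated, and at 50.6 and 69.2 in WT and 60.1 and 44.2 in KO with oxLDL. Its KO values did not overlap between treatments in that cohort, and the upper oxLDL value of WT was level with the lower untreated one. How many of all genes split in this way was not counted. Mrpl50, Mrpl41 and Mrpl17 had the smallest p-values on the higher side, at 1.38, 3.19 and 1.69 points (adjusted p from 0.799 to 0.823 by limma). No member differed by treatment without overlap in every genotype and cohort, beside 1.4% of all genes higher and 0.282% lower.

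For oxLDL minus untreated the median difference in log2 width was -0.13 for members and -0.15 for all genes. Centring each library on its median width gave 0.04 and 0.01. Without centring, 46 of 53 members were below 0, and only 11.1% of all genes were above 0. At an unadjusted p under 0.05, 5 of 53 (9.43%) were narrower, beside 13.6% of all genes, and 0 wider, beside 0.0403%, and none had an adjusted p under 0.05 by limma. Mrps12 and Mrpl30 were narrower without overlap in every genotype and cohort (2 of 53, 3.77%, beside 6.83%), and 0 members were wider in that way, beside 0.0134%. In some or all libraries the Mrps12 peak was also a boundary peak of Sars2 and the Mrpl30 peak of Mitd1.

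The Mrps12 peak measured 1466 bp untreated and 1163 bp with oxLDL in WT of the first cohort, and 1545 and 1441 bp in KO. Replicated libraries measured 823 and 892 bp untreated and 734 and 494 bp with oxLDL in WT, and 1014 and 726 bp untreated and 507 and 639 bp with oxLDL in KO. Its difference was -0.44 ± 0.14 on the log2 scale (SE; limma, adjusted p = 0.339), so the peak was both lower in rank and narrower with oxLDL in the replicated cohort, short of the adjusted threshold. Mrps18c (-0.39 ± 0.12) and Mrpl44 (-0.38 ± 0.12), an RNase III-fold protein of the large subunit, had the other smallest p-values, with the same adjusted p. The 3 with the smallest p-values on the wider side, Mrpl39, Mrps36 and Mrps6, differed by 0.03, 0.03 and 0.12, within their SE of 0.08, 0.09 and 0.42.

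**Figure D5:**
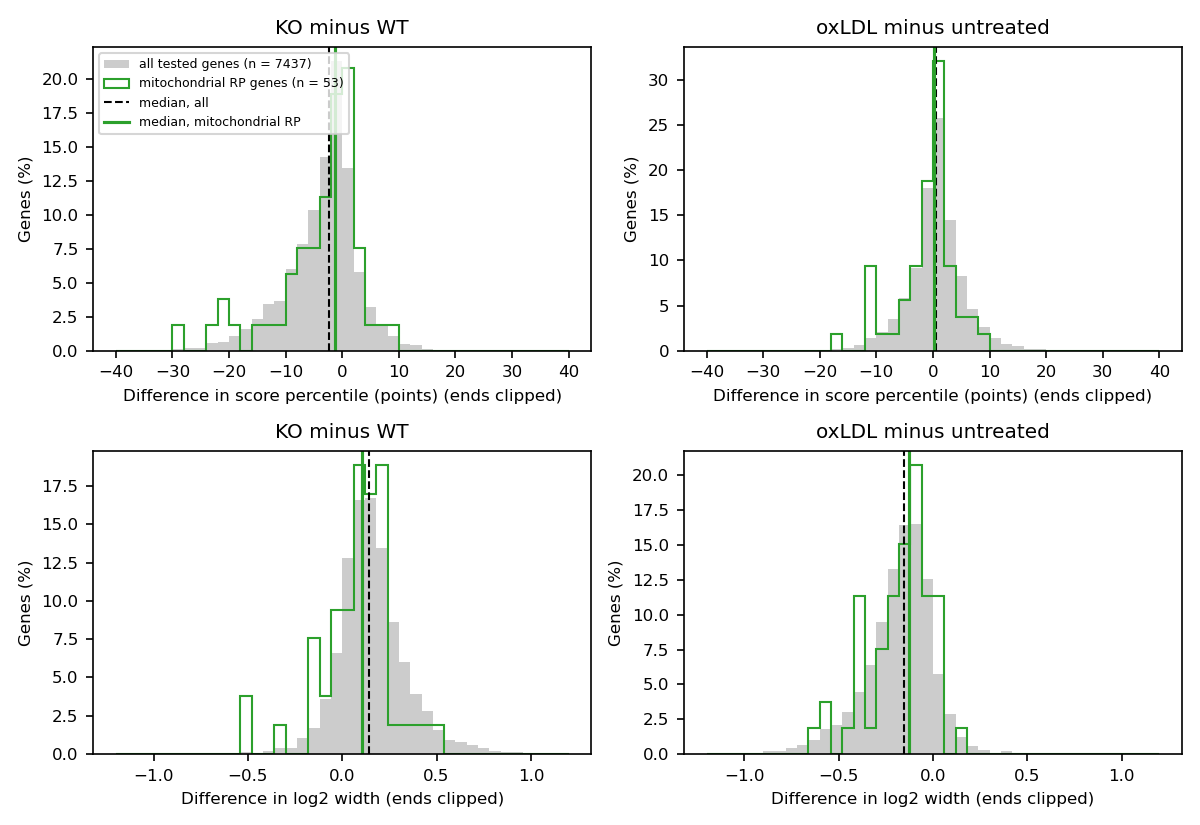
Percent of genes (vertical axis) by fitted difference (horizontal axis) in score percentile (top) and in log2 width (bottom), KO minus WT (left) and oxLDL minus untreated (right), for 7437 tested genes (grey) and 53 mitochondrial ribosomal protein (RP) genes (green outline), with both medians as lines. The medians of members and of all genes are -1.36 and -2.32 points for KO minus WT in the percentile, and -0.13 and -0.15 on the log2 scale for oxLDL in the width.

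The interaction asked whether KO minus WT differed between oxLDL and untreated cells. No member was called by limma for the percentile (median -0.96 points, all genes 0.77) or the width (-0.07 and -0.04 on the log2 scale). The percentile median turned to 1.04 in full lists (all genes, 1.68) and to 2.38 (2.73) with a score of at least 50. Leaving out single libraries gave -1.88 to 0.20, above 0 only without oxLDL KO library 1 of the replicated cohort. At an unadjusted p under 0.05 the percentile gave 2 members below 0 (3.77%, beside 1.53% of all genes) and 0 above (beside 2.81%). They were Mrps36 (-14.1 ± 4.87 points, SE) and Mrps25 (-31.4 ± 12.9), both with adjusted p = 0.966. In the untreated replicated cohort Mrps25 stood at 22.5 and 42.8 in WT and 58.3 and 50.1 in KO. With oxLDL it stood at 62.6 and 60.02 in WT and 37.8 and 29.1 in KO, so its order turned over. The share of all genes with such a turn was not counted. In the first cohort the values of Mrps25 were 85.3 in WT and 85.2 in KO untreated and 78.7 and 83.3 with oxLDL, which does not show that turn. For the width 1 member was above 0 (1.89%, beside 0.699%), Mrps35 at 0.70, and 1 below (beside 1.71%), Mrpl2 at -1.33, both with adjusted p = 1.0. The strongest Mrpl2 peak did not lie at the same end of the gene in every library.

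Other genes of the same pathway gave no call either. Of 15 mitochondrial translation factors, 24 genes of mitoribosome assembly and rRNA modification and 20 mitochondrial aminoacyl-tRNA synthetases and amidotransferase genes, 9, 18 and 16 had a boundary peak in all 12 libraries. For KO minus WT in the percentile, 1, 2 and 1 of these were lower and 0 were higher at an unadjusted p under 0.05, beside 15.2% lower and 1.63% higher among all genes, and none passed after adjustment by limma. Among 12 regulators of mitochondrial gene transcription, Gabpa had a peak near the top in both cohorts (98.7 and 99.1), and that of Nrf1 stood at 91.2 and 55.5. For Nrf1 the fitted difference was -12.4 ± 5.94 points for KO minus WT (SE; limma, adjusted p = 0.293) and 12.98 ± 5.94 points for oxLDL minus untreated (adjusted p = 0.799). The width of the Gabpa peak differed by 0.35 ± 0.07 on the log2 scale between KO and WT (limma, adjusted p = 0.353). Dap3, Ptcd3, Chchd1, Aurkaip1 and Gadd45gip1, mitoribosome genes with other symbols, were called in 85.0% of gene and library pairs of the replicated cohort, and 2 of 5 in all 12 libraries.

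The cell type was read from peaks at marker genes. Of gene and library pairs, macrophage markers had a boundary peak in 97.5% in the first cohort and 80.0% in the replicated cohort. B cell markers had one in 25% and 0%, T and NK cell markers in 42.9% and 30.4%, neutrophil markers in 42.9% and 25%, and erythroid and megakaryocyte markers in 25% and 16.7%. Of 6 matched B cell markers 3, among them Cd79a and Cd79b, had none in any library, whereas Cd3d and Klrb1c of the T and NK cell list, S100a8 of the neutrophil list and Pf4 of the erythroid and megakaryocyte list had one in all 12. Their part in the results was not tested. Smarcd1, the targeted gene, had a boundary peak in 4 of 4 and 4 of 8 libraries, which does not test its deletion, since the peak lies at a gene boundary and the removed part is not given in the sources used here.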

How the data were processed

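ATAC-seq peaks of 12 BMDM libraries were analysed. Each deposited file is the authors' peak list of 1 library, with a caller score per peak, and in the replicated ApoE KO cohort also a deposited fold enrichment. The submitters' processing notes name FastQC, Trim Galore, cutadapt, Bowtie2 2.3.4.1, SAMtools 1.2, Picard, bedtools 2.28.0, MACS2, MACS3 and mm10. Settings of these tools, such as a read shift for the transposase, are not given in sources used here. Scores and fold values were used only to rank or describe peaks within a list. Sequencing depth is unknown, so no counting interval is given.

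Gene positions, strands and promoter windows came from RefSeq tables of GRCm38.p6. Lists were made equal in length within a cohort, autosomal peaks were ranked by score (ties at their mean rank), and the strongest boundary peak of each gene was kept. Percentile and log2 width were fitted over all genes with such a peak in every library, with limma 3.58.1 (trend) in R 4.3.3, on genotype-by-treatment groups and cohort. All 12 libraries entered, since the first cohort has 1 library per group. P-values were adjusted by Benjamini-Hochberg over all 7437 genes, with a threshold of 0.05. The fit was tested on simulated data. Alternatives were full lists, a score of at least 50, other windows and overlap rules, other scales, the replicated ApoE KO cohort alone, terms for replicate number or for a mark in the file names, and leaving out each library.

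The members and gene lists were chosen with earlier results of these data known. Genes were named by rule: the 5 highest and 5 lowest mean percentiles, the 3 widest and 3 narrowest peaks, up to 12 members missing from most libraries, for each test the members called or else the 3 with the smallest p in each direction, the Mrps18 paralogues, and Nrf1, Gabpa and Smarcd1. Members with groups that did not overlap, an unadjusted p under 0.05 or different calls between genotypes were added after seeing values.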

Additional observations from a re-analysis of the deposited data

How the results depend on the processing

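No member was called at an adjusted p under 0.05 by limma in any of the 6 tests, and the count stayed at 0 under all planned and added alternatives except the omission of single libraries. Leaving out each library in turn gave 0 to 1 members for KO minus WT in the percentile (Mrpl54, named outside the rule, beside 66 of 7440 genes called), 0 for the other tests, and 0 to 1 for a peak in at least 5 of 6 against at most 1 of 6 libraries (the 1 beside 72 or 73 of 20665 genes). The share of members with a boundary peak moved with its definition. In the replicated cohort it was 87.0% in full lists, 73.2% with a window of 500 bp and 85.7% with 2 kb. In the first cohort it was 97.1% when any overlap counted, 84.6% with 500 bp and 99.4% with 2 kb. Among genes named for the oxLDL difference in log2 width, Mrpl39 turned to -0.0012 with the file-name mark as a term. Leaving out single libraries gave -0.0055 to 0.063 for Mrpl39, -0.013 to 0.065 for Mrps36 and -0.31 to 0.42 for Mrps6. The cause was not tested. The other 690 values, of the genes named by rule for each test, kept their direction and side of the threshold. With a score of at least 50 only 51 members could be fitted, so the others gave no value there.

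Replicate numbers of the replicated cohort did not pair the libraries: deviations of same-numbered libraries correlated at -0.171 to 0.119 across 7437 genes. With the replicate number as a block 0 members were called in each of the 6 tests, as without it. Depth is unknown, and with 1 library per group in the first cohort and 2 in the other, small differences at low-ranking peaks could not be separated from the spread.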
